A study of Mus musculus with 6 samples.

Results

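The B7 family holds surface proteins with which antigen-presenting and other cells stimulate or restrain T cells. The 9 genes described here were taken by symbol from the 17714 genes of the expression table. They were Cd80 and Cd86, Cd274 and Pdcd1lg2 (encoding PD-L1 and PD-L2), Icosl, Vsir (encoding VISTA) and Cd276 (encoding B7-H3), together with the checkpoint receptor gene Havcr2 (encoding TIM-3) and Lgals9, which encodes its ligand galectin-9. Their RNA was measured by sequencing in 6 wild-type mouse heart libraries given the cell type lymphatic endothelium, 3 from sham-operated mice and 3 from mice with myocardial infarction (MI), all labelled day 3. The protocols mention culture in serum, heart tissue and isolated endothelial cells, leave the actual source of each library unstated, and give no sorting step or animal age. They also do not say that the libraries came from separate animals, so every p-value here reflects the spread among libraries, which may be technical.

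A T cell that meets its antigen needs a further signal from the presenting cell. CD80 and CD86 give it through CD28 and also engage CTLA-4, an inhibitory receptor, while ICOS ligand acts through ICOS. PD-L1 and PD-L2 bind PD-1 and dampen the T cell, VISTA and galectin-9 also restrain it, and the receptor of B7-H3 is not settled. Macrophages and dendritic cells make most of these proteins, and endothelial cells can make PD-L1, ICOS ligand and B7-H3.

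The sham libraries held 3206732 to 3591473 estimated counts and the MI libraries 21154342 to 21689333, so depth followed the group (6.29 times as many in MI). MI 1 stood somewhat apart from the other MI libraries (chi-square per gene of 22.5 to 37.3 against them, and 4.28 between MI 2 and MI 3). Between sham libraries, at their lower depth, it was 1.55 to 1.79. The labelled cell type was checked against 8 lymphatic markers, of which 7 fell in MI and 1 rose. Their summed level was 473 to 498 TPM, the transcript abundance corrected for length and library size, in sham and 240 to 256 in MI. The marker that rose was Pdpn, from 5.23 ± 0.938 TPM in sham to 190 ± 9.55 in MI (SD, n = 3). Pdpn thus held most of the MI sum, and the fall of the other 7 is larger than the sums show. Prox1, the regulator that defines lymphatic cells, was at 1.76 ± 0.127 TPM in sham and 0.283 ± 0.117 in MI (SD, n = 3). All 10 pan-endothelial markers fell, from a sum of 5637 to 5689 TPM in sham to 1026 to 1055 in MI, while all 10 macrophage and monocyte markers rose, from 4566 to 4823 TPM to 22674 to 23277. The pan-leukocyte gene Ptprc went from 41.3 ± 1.11 to 241 ± 54.4 TPM. All 6 neutrophil markers tested rose, all 6 mural and all 6 cardiomyocyte markers fell, 3 fibroblast markers rose and 4 fell, and of 9 dendritic cell markers 5 rose and 3 fell. Of 4 B cell markers tested, 1 rose and 2 fell. Markers of several cell types were thus present in both groups, and in such bulk samples fewer cells of a type and less RNA per cell cannot be told apart.

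All 9 genes were higher in MI, from 1.45-fold for Vsir to 29.6-fold for Havcr2 among the 8 that were counted in both groups. Each was called at a Benjamini-Hochberg adjusted p under 0.05 over 13370 genes (quasi-likelihood test of edgeR), where 73.3% of tested genes were called and 36.4% were called higher in MI. Every MI library also lay above every sham library for each of the 9 in CPM, the count scaled to library size. The groups were separate at 76.1% of tested genes, with MI above at 38.0%. The rise reached 2-fold in 7 of them and in 20.2% of tested genes. The median log2 fold change of the 9 was 1.81, that of all tested genes -0.01. All 9 passed the filter on low counts, but Pdcd1lg2 had no count in sham and passed it through the MI libraries alone. With libraries scaled to total counts, which moved the median of all genes to -0.36, all 9 stayed above 0 and 8 were called; Vsir was not, with a log2 fold change of 0.18 and an adjusted p of 0.0523. These rises occurred beside the increase of macrophage markers given above, whose part in them was not tested.

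**Figure D1:**
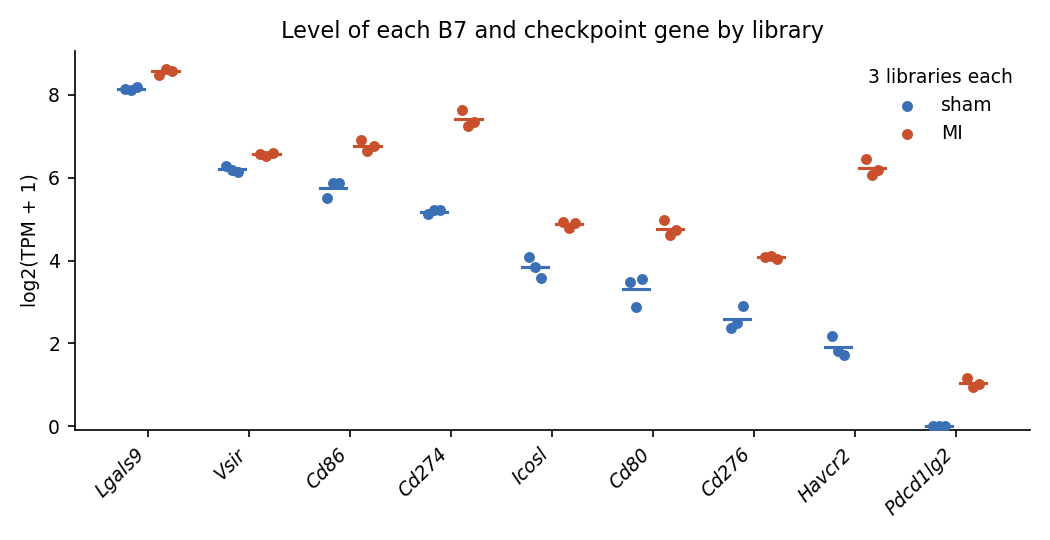
Level of the 9 genes in each library as log2(TPM + 1), ordered by their mean in sham; points are the 3 libraries of a group and bars their means. In every gene the 3 MI points lie above the 3 sham points, with the widest gap at Havcr2 and Pdcd1lg2 listed at 0 in sham.

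**Figure D2:**
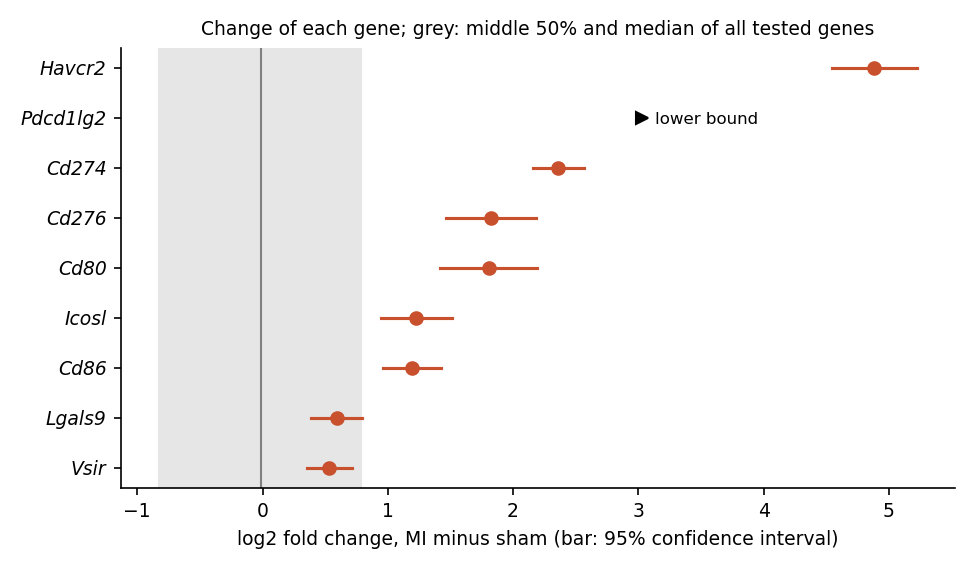
Log2 fold change of each gene between MI and sham from edgeR, with 95% confidence intervals, beside the middle 50% (grey band) and the median (grey line) of all tested genes. Vsir and Lgals9 have their estimates inside the band; Pdcd1lg2, with no count in sham, is drawn at its lower bound of 3.03.

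The ligands of CD28 and CTLA-4 both rose. Cd80 (Entrez 12519, chromosome 16 from 38457430 to 38495958 of GRCm38.p6) stood at 10.1, 6.34 and 10.7 TPM in sham 1 to 3 and at 30.4, 23.5 and 25.5 TPM in MI 1 to 3. The groups did not overlap, and the lowest MI level was above the highest sham level by more than the spread in either group. In CPM Cd80 rose 3.50-fold (log2 fold change 1.81 ± 0.18, SE; adjusted p = 1.89e-06 in edgeR), on 31 to 54 counts per sham library. Cd86 (Entrez 12524, chromosome 16 from 36568956 to 36666158), usually the constitutive partner of the pair on myeloid cells, was more abundant in every library. It stood at 44.7, 57.5 and 57.1 TPM in sham and 119, 98.8 and 108 TPM in MI, and rose 2.29-fold (log2 fold change 1.20 ± 0.11, adjusted p = 7.1e-07 in edgeR). The ratio of Cd86 to Cd80 in TPM was 4.41, 9.06 and 5.31 in sham and 3.93, 4.20 and 4.24 in MI. All MI ratios were below all sham ratios, but sham 1 lay close to the MI range. The exact two-sided permutation test gave p = 0.1 (n = 3 per group), the smallest that 3 against 3 libraries allow; adjusted over the 21 ratios tested by this method, it remained 0.1.

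The genes of the 2 PD-1 ligands lie side by side on chromosome 19, separated by 22.8 kb, and differed widely in level. Cd274 (Entrez 60533, from 29362107 to 29388095) was at 33.7, 36.2 and 36.2 TPM in sham and at 196, 152 and 161 TPM in MI. It was even among the sham libraries and highest in MI 1, with no overlap between the groups. Its rise was 5.14-fold (log2 fold change 2.36 ± 0.09, SE; adjusted p = 5.13e-10 in edgeR), from 70.0 ± 3.48 to 360 ± 28.0 CPM (SD, n = 3). Pdcd1lg2 (Entrez 58205, from 29410919 to 29472927) had 0 counts in all 3 sham libraries and 44, 37 and 40 counts in MI, or 1.25, 0.93 and 1.03 TPM. Set against 3 counts over the sham group (0.26 CPM), it was at least 8.18-fold higher in MI, a bound for counting error only (adjusted p = 0.000107 in edgeR). With MI libraries thinned to the sham depth it did not pass the filter on low counts. Within MI there were 157, 163 and 156 Cd274 TPM for each Pdcd1lg2 TPM. The same ratio has no value in sham. Cd274 was thus the dominant PD-1 ligand transcript in MI, while in sham Pdcd1lg2 was not detectable at this depth. An antisense gene overlaps exons of Cd274 in the annotation, and the strand setting of the counting is unknown.

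Cd274 and Cd86 changed places between the groups, a comparison chosen after their values were seen. Cd274 reached 0.753, 0.629 and 0.634 of the Cd86 level in sham 1 to 3 and 1.64, 1.54 and 1.49 times that level in MI 1 to 3 (TPM). The ratio thus lay below 1 in each sham library and above 1 in each MI library, a log2 difference of 1.21 (exact two-sided permutation p = 0.1, n = 3 per group, and 0.1 after adjustment).

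Among the genes of the remaining B7 proteins, Icosl and Cd276 rose and Vsir changed least. Icosl (Entrez 50723, chromosome 10 from 78069368 to 78079525) was at 15.9, 13.5 and 11.0 TPM in sham and 29.5, 26.7 and 29.0 TPM in MI. Its rise of 2.34-fold had a log2 fold change of 1.23 ± 0.13 (SE; adjusted p = 3.76e-06 in edgeR). Cd276 (Entrez 102657, chromosome 9 from 58524300 to 58555033), a protein found on many non-immune cells, was at 4.14, 4.63 and 6.42 TPM in sham and 16.0, 16.4 and 15.4 TPM in MI. It rose 3.54-fold (log2 fold change 1.82 ± 0.16, SE; adjusted p = 9.01e-07 in edgeR) and was nearly level across the MI libraries. Vsir (Entrez 74048, chromosome 10 from 60346851 to 60430294), an inhibitory ligand of resting myeloid cells, was already high in sham, at 76.5, 72.0 and 69.0 TPM, against 94.4, 91.3 and 95.7 TPM in MI. The groups were separate, yet the estimated rise was 1.45-fold (log2 fold change 0.53 ± 0.08, SE; adjusted p = 8.15e-05 in edgeR), the one call that was lost with total-count scaling. Selplg, which encodes PSGL-1, a protein that VISTA can bind at low pH, rose 8.57-fold, from 29.5 ± 4.03 to 215 ± 13.4 TPM (named after its value was seen).

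The receptor gene Havcr2 rose far more than Lgals9, the gene of its ligand. Havcr2 (Entrez 171285, chromosome 11 from 46454931 to 46481255) was at 3.50, 2.55 and 2.27 TPM in sham, from 20, 14 and 12 counts, and at 86.2, 66.1 and 71.8 TPM in MI, from 2410, 2094 and 2212 counts. No MI library came near the sham range. The rise was 29.6-fold (log2 fold change 4.89 ± 0.15, SE; adjusted p = 1.09e-10 in edgeR), which placed Havcr2 above 98.7% of tested genes by log2 fold change. Lgals9 (Entrez 16859, chromosome 11 from 78962979 to 78984924) was the most abundant of the 9 in every library, at 281, 276 and 291 TPM in sham and 358, 396 and 383 TPM in MI. It rose 1.51-fold (log2 fold change 0.59 ± 0.09, SE; adjusted p = 0.000107 in edgeR), or by 0.24 on the log2 scale with total-count scaling (adjusted p = 0.0286 in edgeR). For each Lgals9 TPM there were 0.0125, 0.00926 and 0.0078 Havcr2 TPM in sham and 0.241, 0.167 and 0.188 in MI, a log2 difference of 4.34 (exact two-sided permutation p = 0.1, n = 3 per group). The genes of other proteins reported to bind TIM-3, named for that role after their values were seen, fell. Ceacam1 went from 107 ± 6.28 to 27.7 ± 3.96 TPM (3.28-fold lower) and Hmgb1 from 299 ± 5.16 to 158 ± 14.9 TPM (1.70-fold lower). The related TIM family gene Timd4, a phosphatidylserine receptor of resident macrophages, fell 15.4-fold, from 44.8 ± 3.42 to 2.32 ± 0.551 TPM.

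The make-up of the summed RNA of the 9 genes changed accordingly. In sham the order by mean TPM was Lgals9, Vsir, Cd86, Cd274, Icosl, Cd80, Cd276, Havcr2 and Pdcd1lg2, and of these neighbours only Cd80 and Cd276 overlapped between libraries. In MI the order was Lgals9, Cd274, Cd86, Vsir, Havcr2, Icosl, Cd80, Cd276 and Pdcd1lg2, with overlap only between Icosl and Cd80. Lgals9 held 59.6 ± 0.677% of the summed TPM of the 9 genes in sham and 42.3 ± 3.54% in MI (SD, n = 3). Over the same groups Vsir went from 15.3 ± 1.02% to 10.5 ± 0.308%, Cd274 from 7.46 ± 0.273% to 18.9 ± 1.95%, and Havcr2 from 0.587 ± 0.143% to 8.30 ± 0.854%. Cd86 stood at 11.2 ± 1.47% in sham and 12.1 ± 0.739% in MI, a difference smaller than the spread between sham libraries. Among the MI libraries, MI 1 had the highest TPM of Cd80, Cd86, Cd274, Havcr2, Pdcd1lg2 and, narrowly, Icosl, and the lowest of Lgals9.

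**Figure D3:**
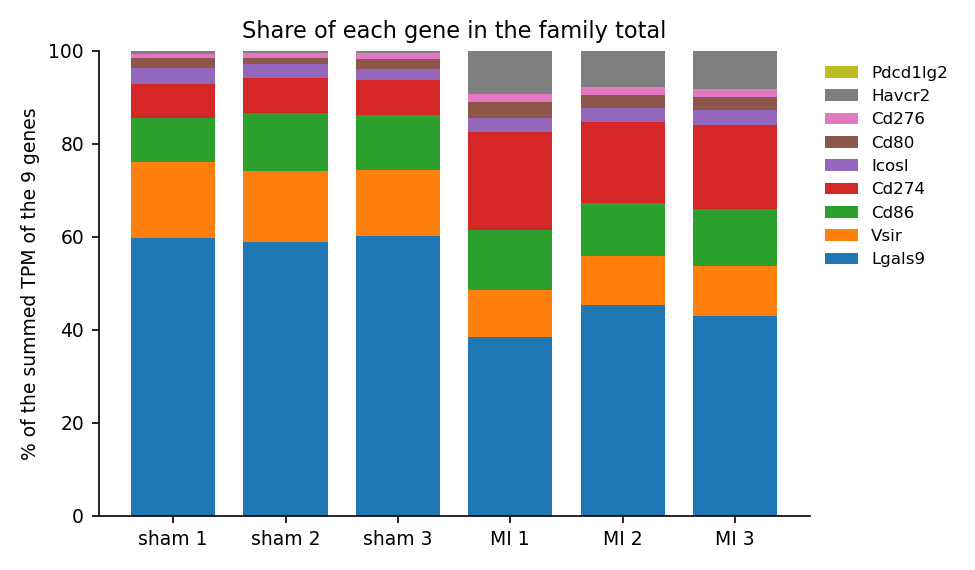
Share of each gene in the summed TPM of the 9 genes, one stacked bar per library. Lgals9 falls from about 59.6% in sham to 42.3% in MI, while Cd274 and Havcr2 widen; Pdcd1lg2 is too small to see.

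The genes were next set against cell-type markers within each library, as log2(CPM + 0.5) minus the list's mean on that scale. Against the 10 macrophage and monocyte markers, 7 of the 8 genes with counts in both groups were lower in MI in every library. Those markers rose unequally, from a log2 fold change of 1.03 (Mertk) to 3.93 (Fcgr1). Lower here therefore refers to the mean of the list and not to each marker. Vsir fell furthest behind the list, 2.20 log2 units lower in MI (0.21 ± 0.04 in sham, -1.99 ± 0.03 in MI), and Lgals9 was 2.15 lower (0.44 ± 0.09 and -1.71 ± 0.12). Cd274 came closest to the list, 0.38 lower (-1.18 ± 0.11 and -1.56 ± 0.16). Havcr2 was the exception, 2.01 log2 units higher in MI (-5.18 ± 0.24 and -3.17 ± 0.15). Against the 10 pan-endothelial markers, all 8 were higher in MI, by 2.83 (Vsir) to 7.04 (Havcr2) log2 units. Each difference was larger than the SD of either group, and each had an exact two-sided permutation p of 0.1 (n = 3 per group). Pdcd1lg2 is left out of these counts, because its direction against the macrophage list turned with the CPM added before taking logs. Which cells carried the transcripts is not resolved by these libraries.

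**Figure D4:**
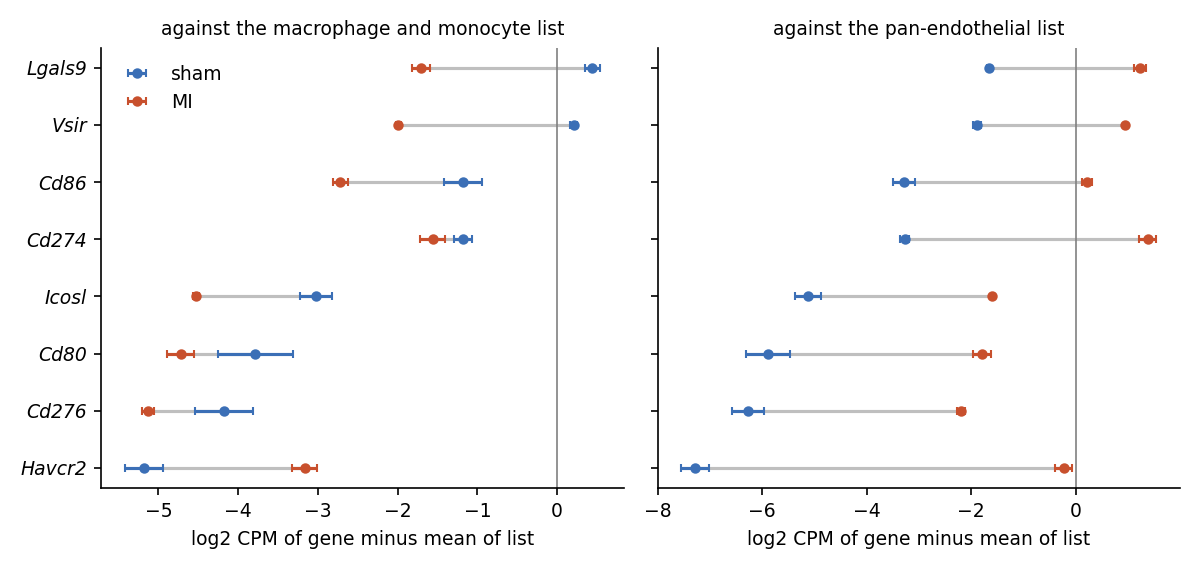
Log2(CPM + 0.5) of each of 8 genes minus the average of the macrophage and monocyte markers (left) or of the pan-endothelial markers (right); points are means of 3 libraries and bars SD. On the left 7 genes lie lower in MI than in sham and Havcr2 lies higher, on the right all 8 lie higher in MI.

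T cell receptors of B7 and other checkpoint ligands were scarce in both groups. Of 10 such receptor genes, 4 had enough counts to be tested. Cd28, Ctla4, Icos and Pdcd1 encode the receptors given above for products of the 9 genes, and of these only Cd28 was tested. Cd28 and Cd160 rose, but with 2 to 4 and 0 to 2 counts per sham library they passed the filter through the deeper MI libraries, so being tested favoured a rise. Pdcd1, which encodes PD-1, had 0 counts in all sham libraries and 5, 5 and 8 counts in MI. Ctla4 had 0, 2 and 1 counts in sham and 2, 4 and 1 in MI, and Icos had 1, 5 and 4 in sham and 1, 6 and 5 in MI. None of these 3 was tested, and at the MI depth the counts amount to at most 0.37 TPM per library. Cd28 was at 0.42, 0.22 and 0.35 TPM in sham and 3.39, 1.68 and 2.21 TPM in MI, a rise of 7.70-fold (adjusted p = 6.25e-05 in edgeR). Cd160, an HVEM receptor of lymphocytes, rose 6.66-fold, from 0.19 ± 0.19 to 1.24 ± 0.164 TPM. It did not pass the filter with MI thinned to the sham depth or with any 1 MI library left out. Lag3 was the most abundant of the receptors, at 4.56 ± 0.573 TPM in sham and 5.51 ± 0.551 in MI, and was not called (adjusted p = 0.0829 in edgeR). Btla, at 0.537 ± 0.268 and 0.547 ± 0.414 TPM, was not called either. The chains of the T cell receptor complex were near 0 as well. Cd3e had 1 count over all sham libraries and 0 over all MI libraries, Cd3g 0 and 2, and Cd3d 3 and 4. The summed level of 9 T cell markers was 2.65 to 6.81 TPM in sham and 9.57 to 10.8 in MI, and Cd4, which mouse macrophages can also carry at low level, held 6.90 ± 0.457 TPM of the latter.

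**Figure D5:**
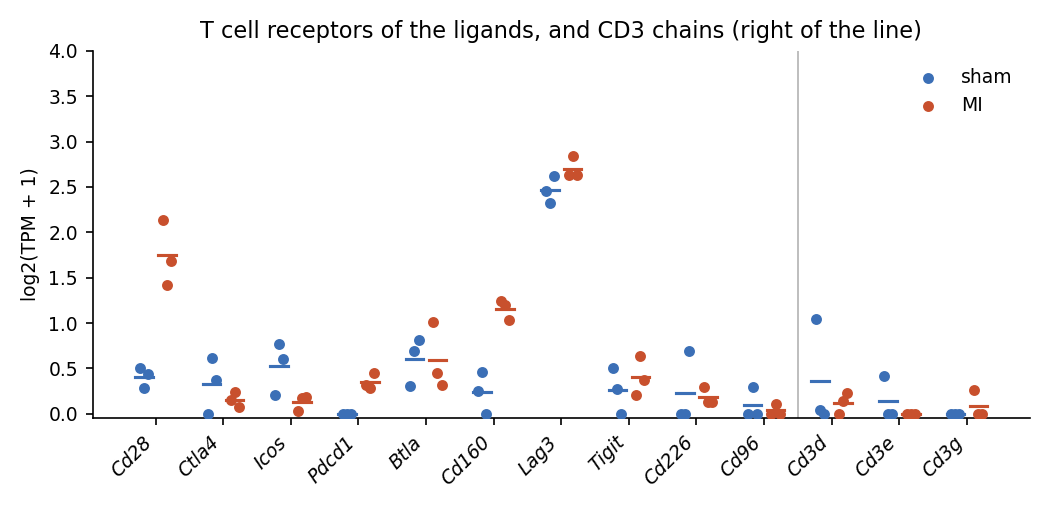
Level of 10 genes of T cell receptors for B7 and other checkpoint ligands and of the 3 CD3 chain genes, as log2(TPM + 1) in each library, with bars at the group means. Lag3 and, in MI, Cd28 and Cd160 stand above the rest; Pdcd1 is listed at 0 in all sham libraries.

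Other checkpoint ligands and myeloid checkpoint receptors went both ways. Of 22 genes on that list, 16 were tested, 7 rose and 8 fell, where 36.4% of all tested genes rose and 36.9% fell. The median log2 fold change of the list was -0.65, that of all tested genes -0.01. Sirpa, the inhibitory receptor of myeloid cells for the CD47 signal, rose 12.7-fold, from 32.7 ± 5.62 to 375 ± 17.9 TPM, and Cd47 itself rose 2.25-fold. Lgals3, which encodes galectin-3, a ligand of LAG-3 abundant in macrophages, rose 65.1-fold, from 46.6 ± 2.26 to 2701 ± 264 TPM. The CD200 pair moved apart. Cd200, an endothelial and neuronal ligand that restrains myeloid cells, fell 7.95-fold, from 479 ± 7.64 to 54.1 ± 7.81 TPM, whereas its receptor gene Cd200r1 rose 13.8-fold, from 1.52 to 1.69 TPM across sham libraries to 15.6 to 24.2 TPM across MI libraries. Vsig4, a B7-related receptor of resident macrophages, fell 13.5-fold, and Rgmb, which encodes a binding partner of PD-L2, fell 3.35-fold. The nectin-family genes on the list were split. Pvr, a ligand of TIGIT and CD226, rose 3.20-fold, from 46.8 ± 0.835 to 134 ± 11.1 TPM, whereas Nectin2 fell 2.19-fold and Nectin3 fell 3.88-fold. The choice of Cd47, Cd200r1, Vsig4, Rgmb, Pvr, Nectin2 and Nectin3 was made with their values in view. The endothelial list fell and the macrophage list rose in the same libraries, and the part of either in these values was not tested.

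Of 16 genes that control PD-L1 and CD86, 9 rose and 4 fell (median log2 fold change 0.60), where 36.4% of all tested genes rose and 36.9% fell. Nfkb1 rose 4.92-fold, from 60.2 ± 1.34 to 265 ± 21.4 TPM, and Jak2, the kinase of the interferon gamma receptor, 3.71-fold, from 41.0 ± 1.82 to 142 ± 31.1 TPM. Irf1, the interferon-induced factor known to drive Cd274, fell 3.06-fold, from 440 ± 14.6 to 131 ± 4.09 TPM. Ifngr1, a chain of the interferon gamma receptor, fell 1.43-fold (chosen with its value in view). Marchf1, a ubiquitin ligase that removes CD86 from the surface, rose 3.19-fold, from 3.51 ± 0.469 to 12.0 ± 2.55 TPM. Cmtm6, which encodes a protein that keeps PD-L1 at the surface, was at 105 ± 2.09 TPM in sham and 89.5 ± 9.88 in MI and was not called (log2 fold change -0.07 ± 0.08, SE; adjusted p = 0.464 in edgeR, named after its value was seen); with total-count scaling it was called lower (-0.42, adjusted p = 0.000544), as it was with limma on log2(TPM + 1) (-0.23, adjusted p = 0.0400).

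Promoter windows from RefSeq (GRCm38.p6, 250 bases before to 50 after an annotated start) matched all of the genes but Cd86. For Cd274 and Cd80 that start lies inside the gene span given above, downstream of its first base. The windows were searched on both strands for the interferon gamma site GAS (TTCNNNGAA), the interferon-stimulated response element ISRE and a kappaB site, which are held by 8.3%, 3.44% and 0.411% of 32851 windows of that length. These motifs do not contain each other. Among the 8 genes, only Lgals9 held any of them, with 2 ISRE matches on the strand opposite the gene, 55 to 46 bases before the start and at bases 16 to 25 after it. Its window is shown with the matches in capitals, beside those of the neighbours Cd274 and Pdcd1lg2, the PD-1 ligand genes, which held no match. A match is a description of the letters, and its absence says nothing about factor binding elsewhere.
Lgals9 (chr11:78984875-78985174, minus strand): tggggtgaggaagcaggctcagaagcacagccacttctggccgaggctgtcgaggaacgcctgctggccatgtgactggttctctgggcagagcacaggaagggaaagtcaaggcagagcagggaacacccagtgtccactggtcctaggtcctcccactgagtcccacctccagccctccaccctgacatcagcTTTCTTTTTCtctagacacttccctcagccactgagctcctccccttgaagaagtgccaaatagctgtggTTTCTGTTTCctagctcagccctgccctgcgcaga
Cd274 (chr19:29367188-29367487, plus strand): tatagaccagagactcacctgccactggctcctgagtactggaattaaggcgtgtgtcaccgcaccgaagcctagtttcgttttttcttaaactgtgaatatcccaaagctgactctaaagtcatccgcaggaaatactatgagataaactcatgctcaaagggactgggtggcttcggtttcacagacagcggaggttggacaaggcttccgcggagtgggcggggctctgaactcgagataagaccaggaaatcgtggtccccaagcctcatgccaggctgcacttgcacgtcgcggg
Pdcd1lg2 (chr19:29410669-29410968, plus strand): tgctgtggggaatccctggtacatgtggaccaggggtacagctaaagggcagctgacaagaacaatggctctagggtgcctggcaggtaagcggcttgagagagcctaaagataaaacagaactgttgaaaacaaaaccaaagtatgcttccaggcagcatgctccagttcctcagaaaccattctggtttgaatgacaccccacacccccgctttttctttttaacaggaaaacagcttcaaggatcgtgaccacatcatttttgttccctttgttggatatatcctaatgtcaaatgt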

How the data were processed

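The authors deposited 1 table with estimated counts per gene and library (2 decimals, not scaled) and TPM, both per the file headers; its other 20 value columns were not used. Reads were mapped to GRCm38 per the labels' design text, and the submitters' processing notes name GRCm38.p6 and Agilent Feature Extraction 9.1, the latter with no role. Aligner, counter, annotation and strand setting are not given in the sources used here. In the GENCODE annotation antisense genes overlap exons of Cd274 and Cd276, so their counts are uncertain to that extent.

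Groups came from the sample titles. Counts were rounded, filtered with filterByExpr and TMM-scaled, and MI was tested against sham with edgeR 4.0.16 (R 4.3.3, quasi-likelihood, group as the only term). SE was taken from the fold change and its F statistic. TPM are given as deposited. Ratios were tested by exact permutation of libraries, with 0.5 CPM added where a list was involved. Low sham depth limits precision for Havcr2, Cd276, Cd80 and Pdcd1lg2. Positions are RefSeq's. The test was tried on simulated data. Alternatives included DESeq2 1.42.0 and limma 3.58.1.

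The 9 genes and all lists were chosen with earlier results of these data known. Named genes were the 9, the 4 smallest p of each pathway list, the receptor genes of the ligands and the markers Ptprc, Prox1 and Cd3e; Cd3d and Cd3g were added to Cd3e afterwards, and others are marked. A withheld item is not reported here.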

Additional observations from a re-analysis of the deposited data

How the results depend on the processing

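The 9 genes kept their direction under every alternative that tested them, and 135 of 139 alternative values kept their call as well. Those that lost it were Vsir with total-count scaling, and Icosl (adjusted p = 0.0504), Vsir and Lgals9 when edgeR tested for more than a 2-fold change, which left 6 of the 9 called and 4160 genes in all. Pdcd1lg2 was not tested with MI thinned to the sham depth, on log2(TPM + 1), or without any 1 MI library, because it failed the filters there. Higher calls made up 34.9% of all calls with total-count scaling, against 49.6%. The T cell receptor genes called higher numbered 1 with thinned MI libraries and 1 to 2 with each library left out (1 without MI 2 or without MI 3), and those called lower 0 to 1 (1 without sham 1). Of the genes controlling PD-L1 and CD86, 4 rose and 1 fell when more than a 2-fold change was tested, and 7 instead of 4 fell with total-count scaling. Btla, never called, turned to -0.21 with limma-voom, -0.28 with total-count scaling and ranged from -0.25 (without sham 1) to 0.40 with each library left out. Lag3 was called without MI 1 (adjusted p = 0.0275). Against the macrophage list Pdcd1lg2 was 0.35 log2 units lower (-0.35) with 0.5 CPM added and 1.73 higher with 0.1, since it is at 0 in sham. The cause of the other shifts was not tested.

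The replicate numbers did not pair the samples (correlation of deviations of same-numbered libraries -0.05 to 0.02). With the replicate number as a block, 9635 genes were called, and the 9 genes stayed called higher.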

Other observations

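Costimulators of the TNF superfamily, which act beside the B7 proteins, were higher in MI where they were tested. Beside a share of 36.4% called higher among all tested genes, 5 of the 11 listed genes were tested and all 5 were called higher. Of these, Tnfsf4 (0 counts in sham) and Tnfrsf9 (0 to 3 counts per sham library) passed the filter only through the MI libraries where they are high, so the count says little about the list. It was 4 with MI thinned to the sham depth or with any 1 MI library left out. Tnfsf14, which encodes LIGHT, a ligand of HVEM, went from 2.35 ± 0.438 to 142 ± 7.62 TPM (SD, n = 3) and rose 67.8-fold. Its receptor gene Tnfrsf14 rose 2.18-fold (named after its value was seen). Tnfsf9, the ligand of 4-1BB, rose 3.85-fold, from 67.2 ± 8.52 to 231 ± 11.4 TPM, and Cd40, through which T cells activate presenting cells, rose 3.04-fold, from 37.2 ± 1.75 to 101 ± 6.02 TPM. Tnfsf4, the OX40 ligand gene, had 0 counts in sham and was at least 29.8-fold higher in MI. Markers of dendritic cells did not move together. Itgax, an integrin also made by macrophages, rose 29.9-fold, and Ccr7, the receptor of migrating dendritic cells, 25.8-fold on 0 to 5 counts per sham library (named after its value was seen), while Zbtb46, made by dendritic and endothelial cells, fell 5.11-fold.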
